A study of Mus musculus with 4 samples.

Results

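A set of 10 genes of postmitotic neurons was followed in embryoid bodies made from mouse embryonic stem cells, in Trim33-deficient bodies and in Control bodies. The genes were taken by symbol from a fixed list (Neurod1, Elavl3, Elavl4, Tubb3, Dcx, Stmn2, Nefl, Nefm, Gap43 and Snap25), all 10 were among the 24015 gene symbols counted in each library, and all 10 passed the filter on low counts among 14259 genes tested. There were 2 Trim33-deficient and 2 Control libraries, harvested on day 7 of differentiation. Per the labels, the stem cell lines came from mouse embryos homozygous for a floxed Trim33 allele with the UbcCreERT2 transgene, a Cre recombinase under a broadly active promoter that 4-hydroxytamoxifen switches on. They were of an outbred strain and grown without feeder cells in LIF and 2i, and deficiency was induced on day 4. Control bodies are labelled wild type, and it is not stated whether they carried the floxed allele or received 4-hydroxytamoxifen. They describe independent pairs, and do not say how many lines or bodies went into a library.

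Neurons arise when proneural transcription factors drive neural progenitors out of the cell cycle, after which a shared set of cytoskeletal, RNA-binding and synaptic genes comes on. Genes of the ELAVL and microtubule group appear early in newborn neurons, while neurofilament and synaptic genes belong to axon growth and maturation. In cells that are not neurons, many of these genes are kept low by the repressor REST. An embryoid body holds derivatives of all germ layers, and the neural fraction is one of several.

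The 4 libraries held 10422738 to 13808837 counts in genes. Trim33 stood at 43.8 and 42.3 CPM in the Trim33-deficient libraries, against 93.0 and 109 CPM in the Control libraries, where CPM stands for counts scaled to library size with TMM factors. Across genes, Control replicate 1 correlated at 0.932 to 0.952 (Pearson, log2 CPM) with the other 3 libraries, which correlated at 0.967 to 0.978 among themselves. These values run across genes, which do not count as replicates. The results below therefore give every library and, where they rest on it, the value without each Control library. RNA was measured in bulk, so fewer neurons and less RNA of these genes per neuron cannot be told apart.

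The start sites of the genes were compared for shared letters. RefSeq promoter windows on build GRCm38.p6, from 250 bases before to 50 bases after a start, matched 5 of the 10 genes (Neurod1, Elavl3, Elavl4, Tubb3 and Dcx) with 9 windows in all. The files' own reads were counted on mm9 per the submitters' processing notes, so these coordinates describe the annotation and not the counted features. Shown are the windows of the transcription factor gene Neurod1, of both RNA-binding protein genes (for Elavl4, the second of its 4 windows, 1 of the 2 with the most E-box letters) and of Tubb3, the most abundant of the 10 genes. Each is written 5′ to 3′ on the gene's strand, with capitals for CANNTG (the E-box letters bound by proneural factors) and for TATAAA.
Neurod1, chr2:79456587-79456886, minus strand: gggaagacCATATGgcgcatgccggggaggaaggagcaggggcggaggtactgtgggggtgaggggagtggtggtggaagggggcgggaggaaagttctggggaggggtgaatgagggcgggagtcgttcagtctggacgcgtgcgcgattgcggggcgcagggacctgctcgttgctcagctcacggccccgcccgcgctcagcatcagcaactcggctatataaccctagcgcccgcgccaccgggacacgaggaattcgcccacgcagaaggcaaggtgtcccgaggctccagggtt
Elavl3, chr9:22051974-22052273, minus strand: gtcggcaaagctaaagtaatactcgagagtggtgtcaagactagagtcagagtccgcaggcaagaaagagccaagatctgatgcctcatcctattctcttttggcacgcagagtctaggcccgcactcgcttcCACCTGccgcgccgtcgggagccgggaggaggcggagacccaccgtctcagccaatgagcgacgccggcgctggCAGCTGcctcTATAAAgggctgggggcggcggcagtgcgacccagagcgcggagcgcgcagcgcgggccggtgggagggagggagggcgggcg
Elavl4, chr4:110287478-110287777, minus strand: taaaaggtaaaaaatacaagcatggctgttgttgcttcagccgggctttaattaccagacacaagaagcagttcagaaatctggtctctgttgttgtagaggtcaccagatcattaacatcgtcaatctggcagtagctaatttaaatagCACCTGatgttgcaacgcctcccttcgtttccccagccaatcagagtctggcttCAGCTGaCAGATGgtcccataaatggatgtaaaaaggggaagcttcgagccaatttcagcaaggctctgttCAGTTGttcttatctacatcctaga
Tubb3, chr8:123411303-123411602, plus strand: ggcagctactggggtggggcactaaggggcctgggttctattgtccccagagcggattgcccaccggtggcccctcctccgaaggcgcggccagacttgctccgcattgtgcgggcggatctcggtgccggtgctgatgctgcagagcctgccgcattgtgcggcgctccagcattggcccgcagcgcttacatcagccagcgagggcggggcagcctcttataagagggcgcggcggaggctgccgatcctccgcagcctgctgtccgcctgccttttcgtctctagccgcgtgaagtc

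Searched on both strands, CANNTG was present in 5 of the 9 windows and in 72.3% of all 32851 windows. By gene it was in 3 of 5, Neurod1, Elavl3 and Elavl4. Its form CAGCTG was in 3 of 9 windows, of 2 genes (Elavl3 and Elavl4), against 16.3% of all windows. CAGATG was in 3 of 9 windows, all of Elavl4, against 17.2%, and CATATG in 1 of 9, that of Neurod1, against 3.91%. The 3 forms are all counted in CANNTG. Of the Elavl4 windows 2 overlap each other, as do both of Dcx, so a site in the overlap is counted in each window. In the Elavl4 window shown, CAGCTG and CAGATG began 46 and 39 bases before the start, and in that of Elavl3 CAGCTG began 43 bases before it, followed by TATAAA at 33. TATAAA was present in 3 of 9 windows, against 13.6% of all. These were the window of Elavl3 and both of Dcx, whose hits are one site, so 2 of 5 genes held it. The left and right parts of the REST-bound element, TTCAGCACC and GGACAGCGC, were in 0 of the 9 windows and in 0.371% and 0.405% of all. The windows of Neurod1, Elavl3 and Tubb3 held 66.7%, 65.3% and 67.3% G and C, those of Dcx 43.0% and 44.7%, and the median window 52.7%. These matches describe letters and not sites in use.

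The first question was how each gene stood in each library. Neurod1, a basic helix-loop-helix factor of neuronal commitment and endocrine cells, had 68 and 45 counts in the Trim33-deficient libraries, against 152 and 30 in the Control libraries. Its level was 4.90 and 3.84 CPM in Trim33-deficient replicates 1 and 2, against 11.7 and 2.93 CPM in Control replicates 1 and 2. The Control libraries lay on either side of both Trim33-deficient ones. In the GRCm38 annotation the span of Neurod1 is overlapped by Cerkl on the same strand, as are those of Elavl3 by Gm49318 and of Tubb3 by Gm20388. Reads of each such pair may not be told apart.

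The neuronal ELAV-like proteins bind AU-rich RNA and steer splicing and stability in new neurons. Elavl3 (HuC) stood at 16.2 and 8.63 CPM in the Trim33-deficient libraries, against 33.5 and 7.81 CPM in Control replicates 1 and 2. Elavl4 (HuD) stood at 18.7 and 8.88 CPM, against 28.4 and 9.47 CPM. Elavl4 was the one gene of the 10 in which a Trim33-deficient library, replicate 2, lay below both Control libraries. That step was small and rests on the scaling, since the raw counts were 104 in Trim33-deficient replicate 2, against 97 in Control replicate 2. Trim33-deficient replicate 1 exceeded replicate 2 by 1.87 times for Elavl3 and 2.10 times for Elavl4, the widest gaps between those replicates among the 10 genes.

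Of the microtubule genes, Tubb3, the neuronal beta-tubulin that TUJ1 antibodies detect, was read most deeply. It had 1240 and 1057 counts in the Trim33-deficient libraries, against 2664 and 383 in the Control libraries, or 89.4 and 90.3 CPM against 206 and 37.4 CPM. The Trim33-deficient replicates were nearly equal, at 89.9 ± 0.597 CPM (SD, n = 2), and both lay inside the Control range. Dcx, the microtubule-bundling doublecortin of migrating neuroblasts, stood at 14.1 and 11.6 CPM in the Trim33-deficient libraries, against 24.8 and 5.76 CPM in the Control libraries. Stmn2, the growth cone stathmin that sequesters tubulin, stood at 26.1 and 20.2 CPM against 54.6 and 13.0 CPM. All 3 genes had the same order of libraries at their ends, with Control replicate 1 highest and Control replicate 2 lowest.

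The neurofilament genes encode the light and medium subunits of the axonal intermediate filament. Nefl stood at 22.1 and 20.2 CPM in the Trim33-deficient libraries, against 50.5 and 12.1 CPM in the Control libraries. Nefm stood at 40.6 and 34.4 CPM, against 99.5 and 14.3 CPM. The Control replicates of Nefm were 6.98 times apart, the widest gap of the 10 genes, against 1.18 times between the Trim33-deficient replicates. Nefl and Nefm are neighbours on chromosome 14 and their annotated spans overlap on opposite strands, and the strand setting of the counting was not given in the sources used, so reads in the overlap cannot be told apart.

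Gap43 encodes a growth cone membrane protein of axon extension. It had 396 and 429 counts in the Trim33-deficient libraries, against 542 and 229 in the Control libraries, or 28.6 and 36.6 CPM against 41.9 and 22.4 CPM. It had the narrowest Control range of the 10, 1.87 times, and a Trim33-deficient replicate 2 above replicate 1. Snap25, a SNARE protein of synaptic vesicle fusion and the latest marker of the set, was scarce. Its counts, with exact 95% Poisson intervals that cover counting error only, were 31 (21.1 to 44.0) and 17 (9.90 to 27.2) in the Trim33-deficient libraries, against 53 (39.7 to 69.3) and 14 (7.65 to 23.5) in the Control libraries. The intervals of both Trim33-deficient libraries overlap that of Control replicate 2, and that of Trim33-deficient replicate 1 also overlaps that of Control replicate 1. These intervals do not separate those libraries, though overlap alone does not show that their counts are alike.

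**Figure D1:**
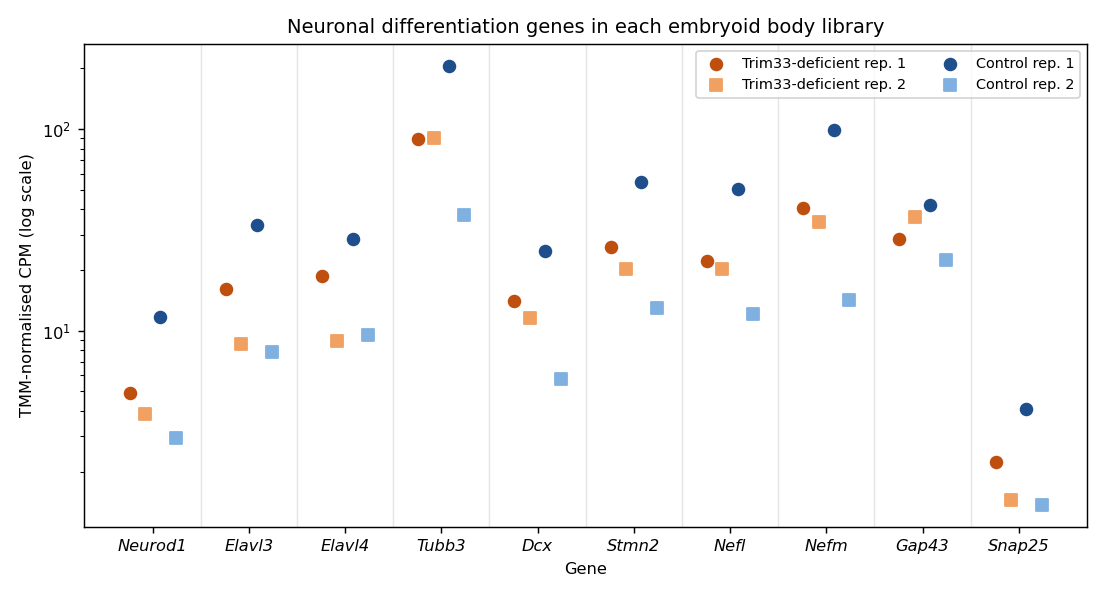
TMM-normalised CPM of each of the 10 neuronal genes (log axis) in the 4 libraries, with 1 point per library. Control replicate 1 is the highest point for every gene, and Control replicate 2 the lowest for all but Elavl4, where it stands at 9.47 CPM and Trim33-deficient replicate 2 at 8.88 CPM.

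Summed over the 10 genes, the libraries held 263 and 236 CPM in the Trim33-deficient bodies, against 555 and 126 CPM in the Control bodies. Trim33-deficient replicates 1 and 2 and Control replicate 2 thus held 47.4%, 42.6% and 22.8% of the level in Control replicate 1. Both Trim33-deficient libraries lay between the Control libraries for 9 of 10 genes, against 17.5% of all genes tested. With such counting intervals on the CPM scale, each Trim33-deficient library was separate from each Control library for 5 of the 10 genes, Tubb3, Dcx, Stmn2, Nefl and Nefm. Such intervals cover counting error only and narrow relative to the level as counts rise. The share of all genes tested with such separation was not counted, so whether 5 of 10 is unusual was not tested. For 4 genes, Neurod1, Elavl3, Elavl4 and Snap25, the intervals of Trim33-deficient replicate 2 and Control replicate 2 overlapped. For Gap43 those of Trim33-deficient replicate 2 and Control replicate 1 did. The interval of Trim33-deficient replicate 1 overlapped that of Control replicate 2 for Neurod1 and Snap25, and that of Control replicate 1 for Snap25. Where intervals overlapped, they do not separate those libraries, though overlap alone does not show that the levels are alike. In the 9 genes with both Trim33-deficient libraries between the Controls, Control replicate 1 was the higher Control library. This order was found for 1428 of the 14259 genes tested, or 10%. For 0 of 10 genes were both Trim33-deficient libraries under both Controls, and for 0 of 10 were they over both, against 21.4% and 19.3% of all genes. Control replicate 1 was the highest library for 10 of 10 genes, against 31.7% of all genes. Control replicate 2 was the lowest for 9 of 10, against 22.8%.

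The distance between replicates was set out next, since the groups hold 2 libraries each. Trim33-deficient replicate 1 exceeded replicate 2 by at least 2-fold for 1 of 10 genes, Elavl4, as it did for 3.43% of all genes. Control replicate 1 exceeded replicate 2 by at least 2-fold for 9 of 10 genes, all but Gap43, as it did for 7.76% of all genes. On the log2 CPM scale the median difference of replicate 1 over replicate 2 was 0.31 in the Trim33-deficient bodies and 2.05 in the Control bodies, against medians of −0.00052 and −0.0048 over all genes tested. Among all genes, the span from the 5th to the 95th percentile ran from −0.76 to 0.78 in the Trim33-deficient and from −1.12 to 1.26 in the Control bodies. The Control differences of 9 genes lay above the Control span, from 1.48 for Snap25 to 2.79 for Nefm, and that of Gap43, 0.90, lay inside it.

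**Figure D2:**
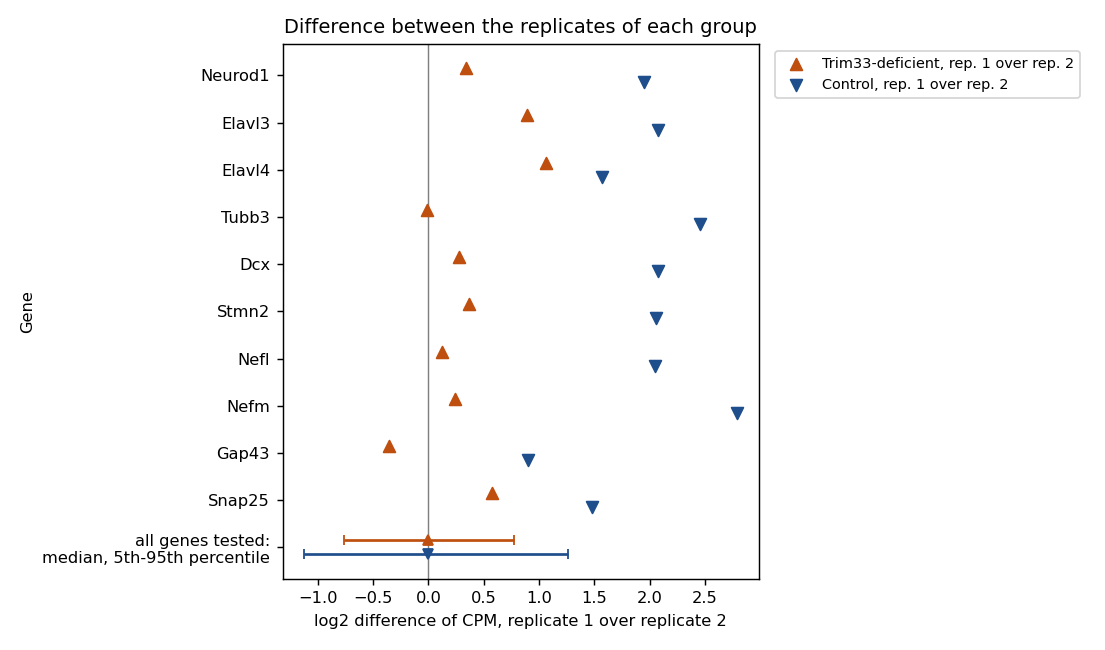
Log2 difference of CPM of replicate 1 over replicate 2 within the Trim33-deficient group (upward triangles) and the Control group (downward triangles) for each gene, with the median and the 5th to 95th percentile of all 14259 genes tested in the lowest row. The Control points run from 0.90 to 2.79 and lie to the right of the Trim33-deficient point of the same gene for each of the 10 genes.

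The comparison the series was made for is Trim33-deficient against Control bodies. None of the 10 genes passed it. The edgeR quasi-likelihood test called 0 of 10 lower and 0 of 10 higher at an adjusted p under 0.05, where it called 0.0140% of all genes lower and 0% higher. DESeq2 called 0 of 10 in either direction, against 0.803% of genes lower and 0.161% higher. At an unadjusted edgeR p under 0.05 there were 0 of 10, against 7.84% of all genes. The authors' deposited table of 84 genes holds 0 of the 10. How the bodies behind a pair were kept apart is not stated, so a p-value covers library-to-library spread only.

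The log2 fold changes of Trim33-deficient over Control were below 0 for 9 of 10 genes, as they were for 50.2% of all genes, with a median of −0.56 against −0.0014 for all genes. Tubb3 averaged 89.9 ± 0.597 CPM in Trim33-deficient and 122 ± 119 CPM in Control bodies (SD, n = 2 each). The log2 fold change of Tubb3 was −0.44 ± 0.77 (SE, edgeR adjusted p = 0.875). Nefm averaged 37.5 ± 4.37 CPM in Trim33-deficient and 56.9 ± 60.3 CPM in Control bodies (SD, n = 2 each), with −0.60 ± 0.86 (SE, adjusted p = 0.853 by edgeR). Neurod1 had the lowest value, −0.75 ± 0.70 (SE, edgeR adjusted p = 0.782), and its 95% interval ran from −2.58 to 1.08. Gap43 was at 0.018 ± 0.34 (SE, edgeR adjusted p = 0.990), and its interval, −0.88 to 0.91, was the narrowest of the 10. The other 6 genes lay between −0.74 and −0.26 with standard errors from 0.64 to 0.74. For every gene but Gap43 the interval held changes of more than 2-fold in either direction, so the misses do not show equal levels.

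Within the pairs taken by replicate number, the genes stood on opposite sides. In pair 1 the Trim33-deficient library was lower than the Control library for 10 of 10 genes, with log2 differences from −1.29 for Nefm to −0.55 for Gap43 and a median of −1.05. In pair 2 it was higher for 9 of 10, with differences up to 1.27 for Tubb3 and 1.26 for Nefm, −0.091 for Elavl4 and a median of 0.67. Lower in pair 1 and higher in pair 2 together held for 9 of 10 genes, against 20.4% of all genes tested. Over all genes the medians were −0.0012 in pair 1 and 0.0056 in pair 2. With the replicate number as a block, edgeR called 0 of 10 genes, and Tubb3 and Dcx were at 0.0020 and 0.051 in that fit.

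Each Control library in turn decided the sign. For 9 of 10 genes this follows from both Trim33-deficient libraries lying between the Controls, so the signs below add no further result. Without Control replicate 1, the log2 fold changes of 10 of 10 genes were above 0, with a median of 0.73. Over all genes 50.7% were then above 0 and 49.3% below. Tubb3 was then at 1.26 and Nefm at 1.39 (edgeR adjusted p = 0.184 and 0.239). The quasi-likelihood test called 0 of 10, against 0% of all genes higher and 0.0687% lower, but DESeq2 called 2 of 10 higher, Tubb3 (adjusted p = 0.00807) and Nefm (adjusted p = 0.0489), against 0.215% of genes higher and 0.381% lower. Without Control replicate 2, 10 of 10 were below 0, with a median of −1.21. Over all genes 50.3% were then below 0 and 49.7% above. Tubb3 was then called lower by the quasi-likelihood test, at −1.19 (adjusted p = 0.0476), against 0.447% of all genes lower and 0.169% higher. DESeq2 then called 4 of 10 lower, against 2.09% of genes lower and 2.84% higher. These 4 were Tubb3 (−1.18, adjusted p = 0.000528), Nefm (−1.39, adjusted p = 0.000519), Nefl (−1.24, adjusted p = 0.0166) and Stmn2 (−1.22, adjusted p = 0.0209). In each such fit the lone Control library is assumed to vary like the Trim33-deficient libraries.

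**Figure D3:**
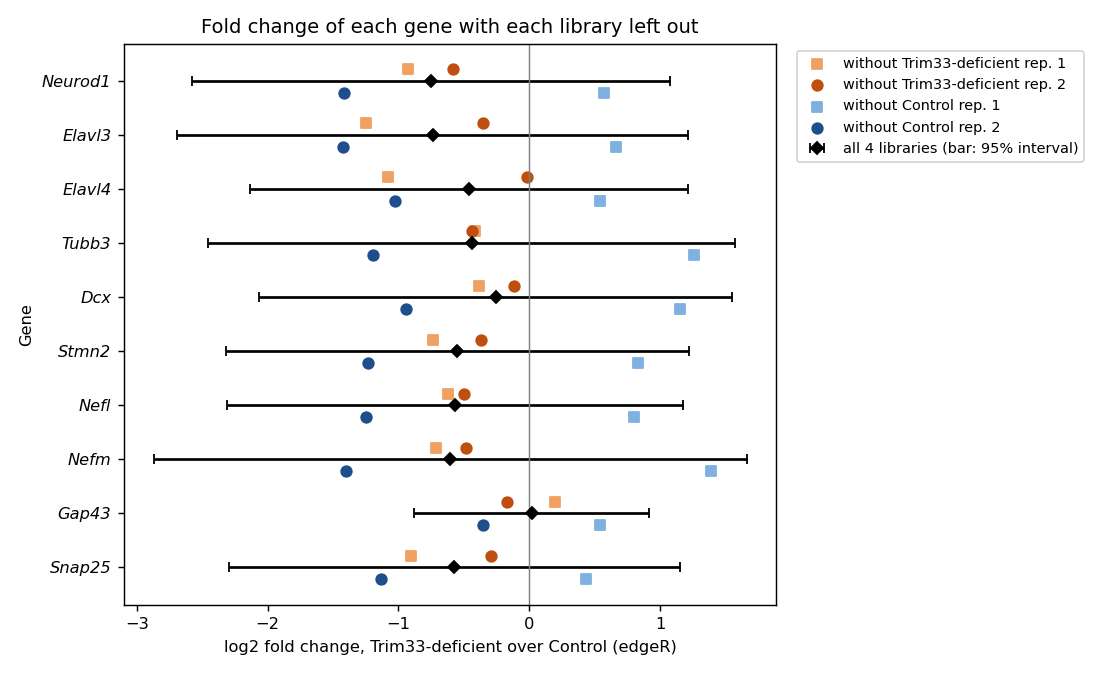
Log2 fold change of Trim33-deficient over Control for each gene (edgeR), with all 4 libraries (diamond, bar for the 95% interval) and with each library left out. The points without Control replicate 1 lie right of 0 for every gene, from 0.43 for Snap25 to 1.39 for Nefm, and those without Control replicate 2 lie left of 0, from −1.42 for Elavl3 to −0.36 for Gap43.

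Leaving out a Trim33-deficient library moved the values less for most genes. Tubb3 stood at −0.42 without Trim33-deficient replicate 1 and −0.44 without replicate 2. The ELAVL genes moved most, Elavl3 to −1.25 and −0.35 and Elavl4 to −1.08 and −0.016. Gap43 was at 0.20 and −0.17. In both fits the lone Trim33-deficient library is assumed to vary like the Control libraries.

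Set per kilobase of the longest GRCm38 transcript, the levels of the 10 genes could be ordered. In the Trim33-deficient bodies Tubb3 was the most abundant at 48.1 ± 0.319 CPM per kilobase, followed by Gap43 at 23.0 ± 4.02, Nefm at 10.2 ± 1.19, Stmn2 at 6.78 ± 1.23, Nefl at 6.26 ± 0.382 and Elavl4 at 3.32 ± 1.67 (SD, n = 2 each). Elavl3 followed at 2.47 ± 1.06, Neurod1 at 1.60 ± 0.275, Dcx at 1.42 ± 0.191 and Snap25 at 0.378 ± 0.114 (SD, n = 2 each). The ranges of the Trim33-deficient libraries overlapped between the neighbours Stmn2 and Nefl, Elavl4 and Elavl3, Elavl3 and Neurod1, and Neurod1 and Dcx. Ranges across libraries thus do not separate those neighbours, while Elavl4 lay wholly above Neurod1 and Dcx. Neighbouring genes were read in the same libraries, so the order within each library, given below, is the closer comparison. The Control means ran in the same order, from Tubb3 at 110 and 20.0 CPM per kilobase in replicates 1 and 2 to Snap25 at 0.839 and 0.280. The order held within each library except that Nefl, at 5.99, stood above Stmn2, at 5.91, in Trim33-deficient replicate 2. The Control range of each gene overlapped that of its neighbour in this order. Gap43 varied least: in Control replicate 2 it stood at 15.8 CPM per kilobase beside 20.0 for Tubb3, but at 29.5 beside 110 in Control replicate 1.

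Other neuronal genes were counted from longer lists. Of 24 genes of neuronal structure and adhesion, 23 were tested. Of these, 18 had log2 fold changes below 0 and 5 above, with a median of −0.33. By edgeR or DESeq2 0 were called. Of all genes edgeR called 0.0140% lower and 0% higher, and DESeq2 0.803% lower and 0.161% higher. At an unadjusted edgeR p under 0.05 there was 1 of 23, against 7.84% of all genes. Control replicate 1 was at least 2-fold above replicate 2 for 16 of 23, and both Trim33-deficient libraries lay between the Controls in that order for 15. Mapt, the axonal tau protein, stood at 3.97 and 4.18 CPM in the Trim33-deficient libraries, against 14.8 and 5.18 CPM in the Control libraries, so here both lay below both. Map1b, an early microtubule-associated protein, stood at 271 and 284 CPM against 238 and 203 CPM, above both Control libraries. Prph, the filament protein peripherin of peripheral neurons, stood at 4.04 and 7.17 CPM against 3.63 and 2.73 CPM. For the 15 genes between the Controls, the signs without either Control library largely follow from that order and add no further result. Without Control replicate 1, 21 of 23 genes of the list were above 0, against 50.7% of all genes. Without Control replicate 2, 20 of 24 genes of the list were below 0, against 50.3% of all genes. Their median log2 fold changes by edgeR were 0.53 without Control replicate 1 and −0.95 without Control replicate 2.

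Synaptic and secretory vesicle genes were counted in the same way. Of 26, 24 were tested, with 16 below 0 and 8 above, a median of −0.20 and 0 called by edgeR or DESeq2. At an unadjusted edgeR p under 0.05 there were 2 of 24, against 7.84% of all genes. Control replicate 1 was at least 2-fold above replicate 2 for 12 of 24, and both Trim33-deficient libraries lay between the Controls in that order for 11. Chga, the chromogranin of dense-core vesicles, stood at 3.53 and 3.59 CPM in the Trim33-deficient libraries, against 14.8 and 2.73 CPM in the Control libraries, the order found in 9 of the 10 genes. The inhibitory transmitter genes Slc32a1, Gad1 and Gad2 had low counts, and none of them was called. Slc32a1, the vesicular GABA transporter, had 44 and 12 counts in the Trim33-deficient libraries, against 4 and 4 in the Control libraries, with a log2 fold change of 2.57 ± 0.79 (SE, edgeR adjusted p = 0.595). Gad1, which makes GABA, had 12 and 10 counts against 37 and 17, at −1.39 ± 0.51 (SE, edgeR adjusted p = 0.629). Gad2 had 12 and 10 counts against 4 and 13, at 0.16 ± 0.79 (SE, edgeR adjusted p = 0.960). Without Control replicate 1, 17 of 24 were above 0 by edgeR, against 50.7% of all genes, with a median of 0.39. Without Control replicate 2, 16 of 26 were below 0, against 50.3% of all genes, with a median of −0.71. For the 11 genes in that order between the Controls, the signs in both fits largely follow from it and add no further result.

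Proneural and neuronal transcription factors act upstream of the 10 genes. Of 28, 23 were tested, with 21 below 0 and 2 above, a median of −0.54 and 0 called by edgeR or DESeq2. At an unadjusted edgeR p under 0.05 there were 0 of 23, against 7.84% of all genes. Control replicate 1 was at least 2-fold above replicate 2 for 18 of 23, and both Trim33-deficient libraries lay between the Controls in that order for 13. Nhlh1, a helix-loop-helix gene of newborn neurons, stood at 7.79 and 4.18 CPM in the Trim33-deficient libraries, against 20.4 and 6.05 CPM in the Control libraries, and the LIM factor gene Lhx5 at 3.97 and 2.73 CPM against 14.3 and 3.32 CPM. Neurog1 and Neurog2, which activate Neurod1 and were picked with their values known, stood at 7.43 and 3.67 CPM against 19.6 and 4.30 CPM, and at 1.01 and 1.20 CPM against 4.02 and 0.391 CPM. The factors Neurod2, Neurod6 and Tbr1 of cortical neurons, picked in the same way, had at most 6 counts in any library. For the 13 factors between the Controls, the signs without either Control library largely follow from that order and add no further result. Without Control replicate 1, 20 of 23 factors were above 0, against 50.7% of all genes. Without Control replicate 2, 22 of 24 factors were below 0, against 50.3% of all genes. DESeq2 called 5 of the factors lower in that second fit, among them Lhx5, Neurog1, Nhlh1 and Pou4f1, against 2.09% of all genes, and edgeR called 0.

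The REST complex did not share the pattern. Rest, the repressor of neuronal genes in other cells, stood at 116 and 120 CPM in the Trim33-deficient libraries, against 112 and 110 CPM in the Control libraries. The difference for Rest was 0.093 ± 0.10 on the log2 scale (SE, edgeR adjusted p = 0.806). Of 9 complex genes, 5 were below 0 and 4 above, and 0 were called by edgeR or DESeq2. At an unadjusted edgeR p under 0.05 there was 1 of 9, against 7.84% of all genes. Control replicate 1 was at least 2-fold above replicate 2 for 0 of 9. This is near the 7.76% of all genes, so it is not particular to the complex. Rcor2, a corepressor abundant in stem cells and neural progenitors, stood at 149 and 104 CPM in the Trim33-deficient libraries, against 205 and 159 CPM in the Control libraries. The deacetylase scaffold gene Sin3a was at 161 and 146 CPM against 170 and 164 CPM, and the histone methyltransferase gene Ehmt2 at 255 and 264 CPM against 319 and 311 CPM.

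Neural progenitor genes shared the gap between the Controls but not the order of the other libraries. All 16 were tested, with 13 below 0 and 3 above, a median of −0.84 and 0 called by edgeR or DESeq2. At an unadjusted edgeR p under 0.05 there were 3 of 16, against 7.84% of all genes. Control replicate 1 was at least 2-fold above replicate 2 for 8 of 16, and both Trim33-deficient libraries lay between the Controls in that order for 2. Otx2, a forebrain and midbrain factor, stood at 41.7 and 28.3 CPM in the Trim33-deficient libraries, against 147 and 49.4 CPM in the Control libraries, and Olig2 of ventral progenitors at 1.66 and 1.20 CPM against 5.02 and 2.64 CPM. Without Control replicate 1, 10 of 16 progenitor genes were below 0, beside 49.3% of all genes and 0 of the 10 neuronal genes. Without Control replicate 2, 15 of 16 were below 0, and edgeR called 2 of them lower, Otx2 and Zic1, against 0.447% of all genes. DESeq2 called 5 lower in that fit, Otx2, Pax6, Sox1, Sox2 and Zic1, against 2.09% of all genes.

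Markers of other cell types differed between the same libraries. Summed pluripotency markers (6 of 6 tested) stood at 69.6 and 109 CPM in the Trim33-deficient libraries, against 189 and 109 CPM in the Control libraries, and 1 of 6 was at least 2-fold higher in Control replicate 1 than in replicate 2. Summed cardiomyocyte markers (7 of 7 tested) stood at 907 and 144 CPM against 98.4 and 268 CPM, so the libraries were ordered otherwise. Summed visceral endoderm markers (7 of 7 tested) stood at 57.4 and 51.5 CPM against 891 and 933 CPM, with Control replicates close to each other. In these 3 lists 0 genes lacked counts in all libraries. Of 9 glial markers 5 were tested, with sums of 75.5 and 104 CPM against 99.8 and 106 CPM, and the astrocyte gene Gfap had 0 and 1 counts in the Trim33-deficient libraries, against 0 and 0 in the Control libraries. The pancreatic hormone genes Ins1, Ins2 and Gcg and the islet factor gene Pax4 had 0 counts in every library, which allows up to 0.216 to 0.293 CPM at 3 counts per library. The part of these other cell types in the levels of the 10 genes was not tested.

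**Figure D4:**
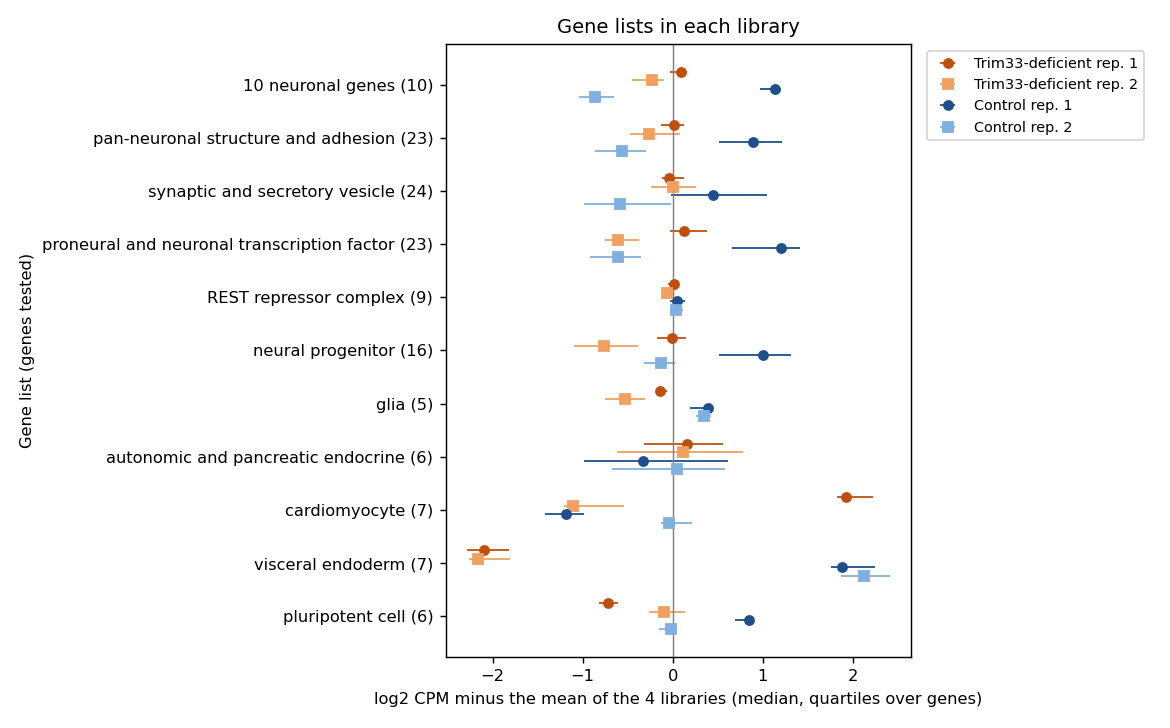
Median log2 CPM, minus the mean of the 4 libraries, of the 10 neuronal genes and of each companion list in each library, with bars for the quartiles over genes (genes tested in brackets). For the 10 neuronal genes the medians are 0.088 and −0.23 in the Trim33-deficient and 1.14 and −0.86 in the Control libraries, while those of the 9 REST complex genes run from −0.065 to 0.052.

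Lastly, the genes were sought whose profile over the 4 libraries was most like that of the set. The mean profile of the 10 genes, in log2 CPM around each gene's mean, was 0.082 and −0.27 in the Trim33-deficient libraries and 1.06 and −0.88 in the Control libraries. Stmn2 lay nearest to it of the 10 (Euclidean distance 0.0902 on the log2 scale) and Gap43 farthest (0.927). Among 12922 other genes with a mean of at least 2 CPM, the 5 nearest were Mfsd2a, a lysolipid transporter (0.0816), Abcc8, a regulatory subunit of ATP-sensitive potassium channels (0.128), Gpr20 (0.144), Jakmip2 (0.158) and En1, a midbrain and hindbrain homeobox factor (0.164). Mfsd2a stood at 6.78 and 5.12 CPM in the Trim33-deficient libraries, against 14.2 and 3.42 CPM in the Control libraries, and En1 at 3.97 and 3.07 CPM against 9.20 and 2.05 CPM. With 4 libraries such likeness is a description only.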

How the data were processed

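The deposited count files give raw counts per gene symbol for each library. Per the submitters' processing notes, STAR, HTSeq, DESeq and build mm9 were used, with no versions or roles; how strand and annotation were set was not given in the sources used. Rows that name no gene (55.5% to 56.0% without a feature, at most 0.200% ambiguous) stayed out of library sizes and tests. The authors' deposited table lists 84 genes with a normalised mean signal, a fold change, its log2 and a raw and adjusted p-value of at most 0.0496; only its gene names and adjusted p were used.

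Genes were filtered with filterByExpr, scaled by TMM and tested by the quasi-likelihood F-test of edgeR 4.0.16 (two-sided, Benjamini-Hochberg over all 14259 genes, threshold 0.05) in R 4.3.3, without a replicate block. SE is the absolute log2 fold change over the square root of F. For log2 CPM the prior count was 2. The alternatives tried included limma 3.58.1 (voom), DESeq2 1.42.0, the likelihood ratio test of edgeR, further filters and scalings, a threshold of 0.1, a replicate block and each library left out; DESeq2 without a Control library was added after the data were seen. The fits were tested on simulated data. The labels speak of independent pairs, so replicate numbers were taken as pairs; same-numbered deviations correlated at 0.236 (Pearson) and 0.207 (Spearman) across genes. Replicates were no duplicate deposits (chi-square per degree of freedom 24.3 for Trim33-deficient and 35.7 for Control libraries).

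The 10 genes and all lists were chosen with earlier results of these data known. Named besides them were Trim33, Rest, the 3 genes of each list with the smallest p at a mean of at least 1 CPM, and the 5 nearest profiles; not every gene so named is reported here.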

Additional observations from a re-analysis of the deposited data

How the results depend on the processing

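Of all genes tested, edgeR called 2 lower and 0 higher. The lower count was 4 at an adjusted p under 0.1, 115 with DESeq2, 140 with the likelihood ratio test, 0 with limma voom and 14 without a low-count filter, and the higher count was 23 with DESeq2 and 29 with the likelihood ratio test. Over the left-out libraries (edgeR, and DESeq2 for the Controls) the lower count ran from 0 to 288 and the higher from 0 to 392. With DESeq2 they were 55 and 31 without Control replicate 1, and edgeR called 66 lower without Control replicate 2. The count of neuronal genes called was 0 in each of these settings with all libraries, and with one left out it ran from 0 to 4 lower and from 0 to 2 higher. The replicate block called 2 genes lower and 0 higher of all genes, and 0 of the 10.

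Of 150 log2 fold changes of the 10 genes under an alternative, 25 turned their direction, 18 of them without Control replicate 1, 2 without Control replicate 2 and 1 without a Trim33-deficient replicate. The other 4 were values near 0: with the replicate block Dcx at 0.051 and Tubb3 at 0.0020, and Gap43 at −0.024 with upper quartile factors and −0.039 with total counts. Over the left-out libraries the values ran from −0.94 to 1.16 for Dcx (1.15 by edgeR without Control replicate 1), −1.42 to 0.67 (likewise 0.66) for Elavl3, −1.08 to 0.54 for Elavl4, −0.36 to 0.54 for Gap43 (−0.34 by DESeq2 without Control replicate 2) and −1.25 to 0.80 for Nefl. They ran from −1.40 to 1.395 for Nefm (1.39 by edgeR without Control replicate 1), −1.42 to 0.58 (likewise 0.57) for Neurod1, −1.13 to 0.43 for Snap25, −1.23 to 0.83 for Stmn2 and −1.19 to 1.26 for Tubb3. The fits differ in which library they leave out, and the cause of the gap between the Control libraries was not tested. Snap25, with 14 to 53 counts, is limited by depth.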

Other observations

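Of 11 autonomic and pancreatic endocrine genes 6 were tested, with 3 log2 fold changes below 0 and 3 above. Dbh, which makes noradrenaline, had 29 and 18 counts in the Trim33-deficient libraries, against 4 and 3 in the Control libraries, with a log2 fold change of 2.55 ± 0.55 (SE, edgeR adjusted p = 0.523). Phox2a, a homeobox factor of autonomic neurons, stood at 2.74 and 2.39 CPM in the Trim33-deficient libraries, against 6.65 and 5.47 CPM in the Control libraries (−1.24 ± 0.33, SE, edgeR adjusted p = 0.548). For both genes the groups did not overlap, in opposite directions, as was the case for 21.4% of all genes in the lower and 19.3% in the higher direction. Neither passed edgeR or DESeq2 at an adjusted p under 0.05, though both had an unadjusted edgeR p under it.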
